A study of Danio rerio with 21 samples.

Results

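The genes described here encode the proteasome. They were chosen by symbol alone: every gene whose zebrafish symbol, lower-cased, starts with psma, psmb, psmc, psmd or psme followed by a digit. The rule found 55 of 32520 gene identifiers. Of these, 53 encode subunits, base chaperones or activators of the proteasome, and 2 (psmc3ip and psme3ip1) encode proteins named for binding a subunit, which are left out of every count of subunit genes. Counts were measured by low-input RNA-seq in livers dissected from zebrafish larvae at 7 days post fertilization (dpf) and dissociated with trypsin, in 21 libraries of 7 genotypes with 3 libraries each. The genotypes were xbp1-/-;sec31anju221, atf6-/-;sec31anju221, the libraries labelled atf4a-/-;atf4b-/-;sec31anju221, srebf1-/-;sec31anju221, srebf2-/-;sec31anju221, sec31anju221 and wild type (WT). sec31anju221 is a gene-trap allele of sec31a, which encodes a coat protein of the vesicles that leave the endoplasmic reticulum, and the study describes it as hypomorphic. The other genes encode transcription factors of the unfolded protein response (xbp1, atf6, atf4a and atf4b) and of lipid synthesis (srebf1 and srebf2). All 5 double mutant lines carry sec31anju221 too, so each was compared with sec31anju221, and sec31anju221 with WT. Where several are listed, a double mutant line is also called by its other mutated gene (the xbp1 line, and the libraries labelled atf4a/atf4b). The 5 comparisons with double mutants share the same sec31anju221 libraries, which are also those set against WT. The number of larvae behind a library is not given in the sources used here.

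The proteasome degrades proteins that carry ubiquitin. Its core is a barrel in which outer rings of alpha subunits (psma genes) gate the entrance and inner rings of beta subunits (psmb genes) cut the substrate, with the active sites in psmb5, psmb6 and psmb7. A regulatory particle caps the barrel: its ATPases (psmc genes) unfold the substrate, and its other subunits (psmd genes) bind ubiquitin chains, remove them or hold the complex together. In mammals, interferon induces psmb8, psmb9 and psmb10, which replace the active beta subunits and form the immunoproteasome, and the activator pair psme1 and psme2, which can replace the cap. psme3 encodes a related activator of the nucleus, and psme4 a large single-chain activator.

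All 53 subunit genes passed the filter on low counts, and 37 averaged 10 CPM or more (counts per 1000000 counts of the library) over the 21 libraries. The other 16 had lower means and included all 7 inducible and thymic beta genes. Values are CPM after scaling by trimmed mean of M-values (TMM) unless another scale is named. The 3 libraries of a genotype differed by little more than sampling noise (variance over mean of 1.76 to 1.87 in genes with at least 20 counts; a spread of 10% would give 36.5 to 38.9 in genes with 2000 to 10000 counts, where 1.86 to 2.24 was seen), so each genotype was counted as 1 sample. No p-value is given. A gene is said to have risen or fallen where its fitted fold change passed 2, as a description of these libraries with no replicate check, and an SD is over the 3 libraries of a genotype.

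Library totals were 9608400 to 23095746 counts. TMM factors were 2.08 in xbp1-/-;sec31anju221 and atf6-/-;sec31anju221 and 1.56 to 1.57 in the libraries labelled atf4a-/-;atf4b-/-;sec31anju221, against 0.759 to 0.765 in sec31anju221 and 0.482 to 0.485 in WT. When only the 5199 genes averaging 10 CPM or more set the factors, these 3 comparisons with sec31anju221 shifted upwards by 1.25, 1.51 and 1.28 on the log2 scale. For this reason the subunit genes are also given relative to the median of those 5199 genes, which no scaling factor moves. The targeted gene was lower in every line but one: xbp1 had 0.385 CPM in xbp1-/-;sec31anju221 and 104 in sec31anju221, atf6 had 4.41 against 328, srebf1 0.455 against 1.57, srebf2 0.997 against 4.45, and sec31a 2.64 in sec31anju221 against 19.5 in WT. srebf1 was as low in srebf2-/-;sec31anju221 (0.405 CPM), where it was not the target, so its level does not set its own line apart. In the libraries labelled atf4a-/-;atf4b-/-;sec31anju221, atf4a (12.6 against 6.40 CPM) and atf4b (132 against 88.4 CPM) were not lower. By quantitative PCR the study reported both mRNAs as absent in its knockout embryos, so these levels do not bear out the label. Every direction drawn from these libraries rests on that label. atf4a was lower than in sec31anju221 in the xbp1 line (1.26 CPM) and the atf6 line (0.852 CPM), where it was not the target. All 12 hepatocyte markers were detected in every genotype, with summed levels of 58960 to 320642 CPM in the double mutants, 184236 CPM in sec31anju221 and 660762 CPM in WT. apoa2 held most of each sum, with 583324 CPM in WT and 151522 CPM in sec31anju221. By gene, 11 of the 12 fell and 0 rose in sec31anju221 over WT, where 18.3% and 15.9% of the 5199 genes did. In the xbp1 line over sec31anju221 10 fell and 0 rose, where 60.5% and 1.25% did. In the srebf1 line 1 fell and 5 rose, where 12.9% and 15.3% did. In the srebf2 line 1 fell and 7 rose, where 17.3% and 22.9% did. Over sec31anju221, 8 of the 12 fell and 1 (ttr) rose in the atf6 line, where 67.7% and 2.06% of the 5199 genes did. In the libraries labelled atf4a/atf4b 3 fell and 1 (ttr) rose, where 58.1% and 3.52% of the 5199 genes did. Exocrine pancreas markers summed to 14.7 CPM in the xbp1 line, 769 CPM in the atf6 line, 25.8 CPM in the libraries labelled atf4a/atf4b, 628 CPM in the srebf1 line and 37.8 CPM in the srebf2 line, against 92.2 CPM in sec31anju221 and 1972 CPM in WT. The sums in WT and sec31anju221 were mostly amy2a, with 1803 and 69.8 CPM. Every other marker was higher in the atf6 and srebf1 lines than in WT, such as prss1 with 116 and 86.3 against 12.9 CPM. Intestine markers summed to 566, 33.4 and 81.2 CPM and erythrocyte markers to 10.1, 16.2 and 16.6 CPM in the xbp1 line, the atf6 line and the libraries labelled atf4a/atf4b, against 3268 and 78.7 CPM in sec31anju221. In the srebf1 and srebf2 lines intestine markers summed to 2904 and 574 CPM, and erythrocyte markers to 108 and 146 CPM. In WT these sums were 1677 and 168 CPM. The intestine sums were mostly fabp2, which had 3263 CPM in sec31anju221. It had 559, 24.7 and 71.7 CPM in the xbp1 line, the atf6 line and the libraries labelled atf4a/atf4b. The intestine markers vil1 and cdx1b were higher in these than in sec31anju221, vil1 with 5.03, 5.68 and 6.61 against 2.68 CPM. Among these, fabp6 was lower only in the atf6 line (0.0334 against 0.191 CPM). It was also lower in the srebf1 line (0.0909 CPM) and the srebf2 line (0 CPM), and all its levels rest on few counts. The lower intestine sums therefore rest on fabp2. The part of other cell types in the proteasome levels was not tested. In whole livers, fewer cells of a type and less RNA per cell cannot be told apart.

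In sec31anju221 livers more proteasome genes were higher than lower against WT livers (35 of 53 had a log2 fold change above 0), and the activator gene psme1 had the highest. The median of all genes tested was itself above 0 (0.18), and 31 of the 53 lay above that median and 22 below. Of the 37 genes averaging 10 CPM or more, 28 lay above the median of the 5199 such genes and 9 below. Of the 53 subunit genes, 14 rose by more than 2-fold and 1 (psmb8) fell, where 21.1% of all 30685 genes tested rose and 14.1% fell. With library totals alone 29 rose and 1 fell. Of the 37 genes averaging 10 CPM or more, 21 rose and 0 fell with these totals, where 32.8% and 7.41% of the 5199 genes did. On the TMM scale the median log2 fold change of the 53 genes was 0.41, against 0.18 for all genes. Of the 37 genes averaging 10 CPM or more, 10 rose and 0 fell, where 15.9% of the 5199 genes rose and 18.3% fell. Relative to the median of those genes, the 37 had a median difference of 0.54 (log2), and 11 were more than 2-fold above it while 0 were more than 2-fold below, where 18.1% and 16.1% of the 5199 genes were. The share of the 37 that rose was thus somewhat above that of all abundant genes, and none of them fell. By class, 4 of 14 non-ATPase regulatory genes, 3 of 7 constitutive beta genes, 2 of 10 alpha genes, 2 of 5 activators, 2 of 3 base chaperones (psmd5 and psmd10, log2 fold changes 1.72 and 1.74) and 1 of 7 ATPases rose.

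psme1 had 82.3, 85.3 and 83.7 CPM in the sec31anju221 libraries, against 6.29, 5.66 and 3.95 CPM in the WT libraries. This was the highest log2 fold change of any subunit gene in this comparison (3.98). Its partner psme2 had 97.9, 103 and 97.9 CPM in sec31anju221, against 21.9, 22.0 and 20.7 CPM in WT (log2 fold change 2.21). The genotypes did not overlap for either gene. The ratio of both, which needs no scaling, also differed: psme1 had 84.3 counts per 100 of psme2 in sec31anju221 (83.2 to 85.5 over the libraries) and 24.6 in WT (19.05 to 28.7). psme3, which forms a ring of its own, had 149, 149 and 151 CPM in sec31anju221, against 99.8, 96.5 and 98.0 CPM in WT, which is under 2-fold (log2 fold change 0.61). Per 100 counts of psme3, psme1 had 56.0 counts in sec31anju221 and 5.40 in WT. Both genes named psme4 were also under 2-fold, with log2 fold changes of -0.29 (ENSDARG00000018742) and 0.77 (ENSDARG00000087911).

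Among the catalytic subunits, psmb5, the chymotrypsin-like site, had 144, 137 and 137 CPM in sec31anju221, against 51.0, 54.7 and 56.6 CPM in WT. psmb7, the trypsin-like site, had 53.5, 56.5 and 56.6 CPM in sec31anju221, against 30.9, 22.5 and 28.4 CPM in WT. Both rose (log2 fold changes 1.37 and 1.03). psmb6, the caspase-like site, had 38.6, 41.9 and 39.8 CPM in sec31anju221, against 36.3, 31.7 and 40.2 CPM in WT, and the libraries overlapped. The 3 genes of 3 separate active sites therefore did not change by the same factor: the differences between their log2 fold changes reached 1.22.

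Among the non-ATPase genes of the regulatory particle, the largest rise was in one of the genes named psmd11, a scaffold subunit of the lid. ENSDARG00000005134 had 50.0, 57.4 and 52.5 CPM in sec31anju221, against 13.4, 9.61 and 13.4 CPM in WT (log2 fold change 2.14). The other gene of that symbol, ENSDARG00000060150, had 4.28, 3.62 and 2.50 CPM in sec31anju221, against 6.02, 6.29 and 6.38 CPM in WT. The first had 1537 counts per 100 of the second in sec31anju221 (1167 to 2100 over the libraries) and 195 in WT (153 to 222). psmd8, a lid subunit, had 188 ± 8.6 CPM in sec31anju221 and 58.9 ± 0.94 CPM in WT (SD, n = 3 libraries each; log2 fold change 1.67). psmc6, an ATPase, lay on the other side: it had 188, 195 and 190 CPM in sec31anju221, against 306, 316 and 316 CPM in WT (log2 fold change -0.71, under 2-fold). The lowest log2 fold changes among genes with at least 10 CPM in one of both genotypes were -0.95 (psmd3), -0.89 (psmc5) and -0.88 (psma1), none of which passed 2-fold.

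Some paralogs moved apart. psmc1b, the lesser counted of the 2 genes for that ATPase, had 7.07 CPM in sec31anju221 and 1.44 CPM in WT (log2 fold change 2.29), while psmc1 had 59.8 CPM in sec31anju221 and 73.4 CPM in WT. psmc1 accordingly had 847 counts per 100 of psmc1b in sec31anju221 and 5106 in WT. psma6l had 7.97 CPM in sec31anju221 and 1.32 CPM in WT (log2 fold change 2.59), while the genes named psma6 had log2 fold changes of 0.40 and 0.88. psmd4, whose protein binds ubiquitin chains, had 26.6 counts per 100 of psmd4b in sec31anju221 and 10.03 in WT. How the authors' counting split reads between such close copies is not given in the sources used here, so values of paralogs are uncertain.

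**Figure D1:**
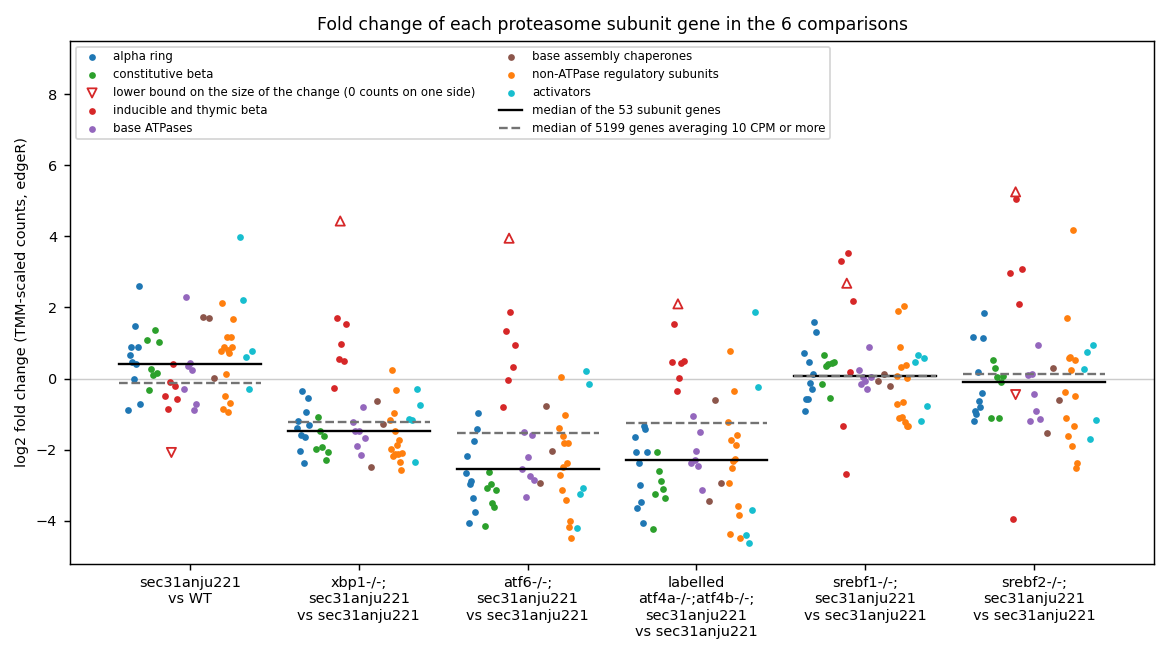
Log2 fold change (vertical axis, TMM-scaled counts) of each of the 53 proteasome subunit genes in the 6 comparisons (horizontal axis), coloured by class. Black lines give the median of the 53 genes, dashed grey lines that of the 5199 genes averaging 10 CPM or more, and open triangles bounds for genes at 0 counts on one side. The subunit median is above the grey line in sec31anju221 vs WT and furthest below it in atf6-/-;sec31anju221 and in the libraries labelled atf4a-/-;atf4b-/-;sec31anju221, where it was -2.54 and -2.30.

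In atf6-/-;sec31anju221 livers nearly the whole proteasome family was lower than in sec31anju221 livers. Of the 53 subunit genes 41 fell and 3 rose by more than 2-fold, where 22.0% of all genes tested fell and 20% rose. The median log2 fold change was -2.54, against 0.25 for all genes. With TMM factors set by the 5199 abundant genes 27 fell and 9 rose. Of the 37 subunit genes averaging 10 CPM or more, 26 fell and 1 rose with these factors, where 19.8% and 18.8% of the 5199 genes did. With the main TMM factors most abundant genes were also lower: 35 of the 37 fell and 0 rose, where 67.7% and 2.06% of the 5199 genes did. Relative to the median of those genes, which is free of scaling, 26 of the 37 were more than 2-fold lower and 1 was more than 2-fold higher, where 19.8% and 18.8% of the 5199 genes were. The median difference was -1.43 (log2). All 7 constitutive beta genes (median log2 fold change -3.14), all 7 ATPases (-2.54), 9 of 10 alpha genes (-2.76) and 13 of 14 non-ATPase regulatory genes (-2.44) fell.

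By the same limit on levels, the lowest log2 fold changes were those of psmd8 (-4.47), psme1 (-4.21) and psmd6 (-4.17), a lid subunit. psmd8 had 7.56, 11.2 and 6.67 CPM in atf6-/-;sec31anju221, against 187, 180 and 197 CPM in sec31anju221. psme1 had 5.21, 4.15 and 4.16 CPM in atf6-/-;sec31anju221, against 82.3, 85.3 and 83.7 CPM in sec31anju221. On this scale the atf6-/-;sec31anju221 libraries overlapped those of WT (6.29, 5.66 and 3.95 CPM) for psme1, but by library totals alone they did not, with 10.8, 8.64 and 8.64 CPM in atf6-/-;sec31anju221 and 3.03, 2.73 and 1.92 CPM in WT. psmb5 had 12.6, 12.9 and 11.3 CPM in atf6-/-;sec31anju221, against 144, 137 and 137 CPM in sec31anju221 (log2 fold change -3.51). psmb6 (3.29 against 40.1 CPM) and psmb7 (6.29 against 55.5 CPM) were lower by similar amounts (log2 fold changes -3.60 and -3.14). Among genes with at least 10 CPM in one of both genotypes, the highest log2 fold change was that of psme4 (ENSDARG00000018742), with 35, 36.9 and 38.4 CPM in atf6-/-;sec31anju221, against 28.9, 34.0 and 31.6 CPM in sec31anju221. Its log2 fold change was 0.22 in a family with a median of -2.54. Next came psma8 (-0.96), which shares its name with an alpha subunit that mammals use in the testis, and psmd1 (-1.39), the scaffold of the base.

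The libraries labelled atf4a-/-;atf4b-/-;sec31anju221 showed a similar pattern. Again 41 of the 53 genes fell and 3 rose, where 21% and 19% of all genes tested did, with a median log2 fold change of -2.30 against 0.22 for all genes. With TMM factors set by the 5199 abundant genes 27 fell and 9 rose. Of the 37 genes averaging 10 CPM or more, 26 fell and 1 rose with these factors, where 23.6% and 20.4% of the 5199 genes did. By class, all 10 alpha genes, all 7 constitutive beta genes, all 7 ATPases and 12 of 14 non-ATPase regulatory genes fell on the TMM scale. Of the 37 genes averaging 10 CPM or more, 36 fell and 1 rose, where 58.1% and 3.52% of the 5199 genes did. Relative to the median of these, 26 of the 37 were more than 2-fold lower and 1 was more than 2-fold higher, where 24.2% and 19.6% of the 5199 genes were, and the median difference was -1.67. psme2 had the lowest log2 fold change (-4.63), with 4.65, 3.83 and 3.51 CPM in these libraries, against 97.9, 103 and 97.9 CPM in sec31anju221. psmd8 (-4.48) and psme1 (-4.40) followed. psme1 had 3.61, 3.83 and 4.45 CPM in these libraries, against 82.3 to 85.3 CPM in sec31anju221. psmd12, a lid subunit, had 7.82, 6.62 and 7.63 CPM in these libraries, against 152, 149 and 156 CPM in sec31anju221.

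The 1 gene of the 37 that rose there was psme4 (ENSDARG00000018742). It had 111, 116 and 119 CPM in the libraries labelled atf4a-/-;atf4b-/-;sec31anju221, against 28.9, 34.0 and 31.6 CPM in sec31anju221 (log2 fold change 1.87). It was higher in these libraries than in those of any other genotype, the next being srebf2-/-;sec31anju221 with 59.4 to 62.8 CPM. Among genes with at least 10 CPM in one of both genotypes, psmd1 (-1.22) and psma6 (ENSDARG00000019398; -1.35) came next in the libraries labelled atf4a/atf4b. The second gene named psme4 (ENSDARG00000087911) had 6.63 CPM in them and 7.85 CPM in sec31anju221, so the pair had 1741 counts of the first per 100 of the second in these libraries (1610 to 1930), against 401 in sec31anju221 (382 to 416). The activators together held 28.8% ± 0.49 of the subunit counts other than psma2 and psma3 there, against 11.9% ± 0.30 in sec31anju221 (SD, n = 3 libraries each). The larger share was that of psme4 (ENSDARG00000018742), with 6320 of 26912 such counts there and 1481 of 147582 in sec31anju221. Of the 5 activators 3 fell and 1 rose, with a median log2 fold change of -3.70. Within the alpha ring, the genes named psma6 exchanged places between both lines: ENSDARG00000019398 had 1144 counts per 100 of ENSDARG00000013966 in the libraries labelled atf4a-/-;atf4b-/-;sec31anju221 and 43.0 in atf6-/-;sec31anju221, against 173 in sec31anju221. The ranges over the libraries were 1003 to 1327, 37.9 to 47.4 and 167 to 180.

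In xbp1-/-;sec31anju221 livers the family was lower by less, and the size of the change depended on the scaling. On the TMM scale 36 of 53 genes fell and 3 rose, where 18.9% and 15.8% of all genes tested did, with a median log2 fold change of -1.47 against 0.20 for all genes. All 7 constitutive beta genes, 6 of 7 ATPases, 7 of 10 alpha genes and 11 of 14 non-ATPase regulatory genes fell. Of the 37 genes averaging 10 CPM or more 32 fell and 0 rose, where 60.5% and 1.25% of the 5199 genes did. With TMM factors set by those 5199 genes 6 of the 53 fell and 7 rose, and with library totals alone 2 fell and 11 rose. Of the 37 genes 6 fell and 0 rose with those factors, where 12.3% and 12.7% of the 5199 genes did. With library totals 2 of the 37 fell and 2 rose, where 9.06% and 17.9% of the 5199 genes did. Relative to the median of the 5199 genes the 37 had a median difference of -0.46. Of them 6 were more than 2-fold lower and 0 more than 2-fold higher, where 13% and 11.6% of the 5199 genes were. The 37 abundant genes moved evenly in this line: 35 of them lay within 2-fold of their own median, a share of 94.6%, against 75.3% of the 5199 genes around theirs. Of all 53 subunit genes 40 lay within 2-fold of the family median, 11 were higher and 2 lower.

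psmb5 had 41.5, 47.4 and 47.5 CPM in xbp1-/-;sec31anju221, against 144, 137 and 137 CPM in sec31anju221 (log2 fold change -1.62). psmb6 (8.19 against 40.1 CPM) and psmb7 (13.3 against 55.5 CPM) had log2 fold changes of -2.29 and -2.06. The lowest were psmd7, a lid subunit that pairs with the deubiquitinase psmd14 (-2.57), psmd10, a base chaperone (-2.47), and psma5 (-2.38). psmd7 had 14.1, 13.7 and 13.7 CPM in xbp1-/-;sec31anju221, against 82.0, 83.5 and 80.2 CPM in sec31anju221. The highest among genes with at least 10 CPM in one of both genotypes were psme4 (ENSDARG00000018742; -0.30), psma4 (-0.36) and psmc5 (-0.80). psme1 had 40.3, 36.5 and 36.9 CPM and psme2 44.1, 43.6 and 45.5 CPM in xbp1-/-;sec31anju221, against 82.3 to 85.3 and 97.9 to 103 CPM in sec31anju221. Their log2 fold changes were -1.14 and -1.16, and became 0.11 and 0.09 with TMM factors set by genes averaging 10 CPM or more, so their direction is not settled. psme1 kept its ratio to psme2 (85.4 counts per 100 in xbp1-/-;sec31anju221 and 84.3 in sec31anju221, with overlapping libraries), while the ratio was 43.3 in atf6-/-;sec31anju221 (40.5 to 47.7).

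**Figure D2:**
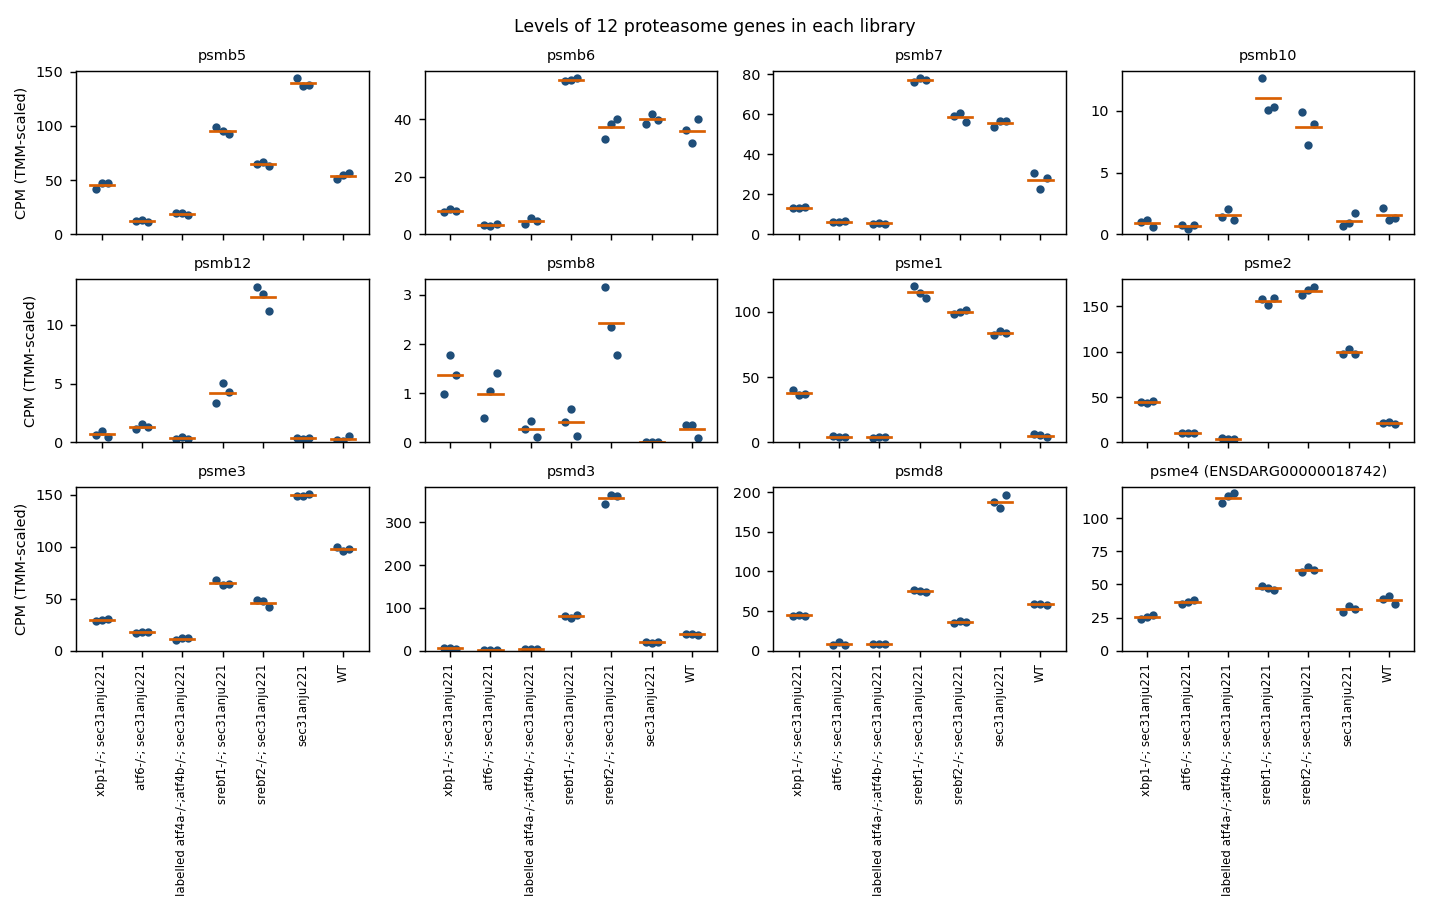
Level (vertical axes, TMM-scaled CPM from 0) of 12 proteasome genes in each of the 21 libraries (points) with the genotype mean (orange line), genotypes along the horizontal axes. psme1 and psme2 sit at 83.8 and 99.4 CPM in sec31anju221 and at 5.30 and 21.6 CPM in WT, psmd3 is highest in srebf2-/-;sec31anju221 and psme4 (ENSDARG00000018742) in the libraries labelled atf4a-/-;atf4b-/-;sec31anju221.

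In srebf1-/-;sec31anju221 livers the median subunit gene stayed near its level in sec31anju221 livers, with a median log2 fold change of 0.06. The summed level of the 53 genes was lower, with 6350 to 6431 CPM against 8950 to 9038 CPM in sec31anju221. psma2 (-0.93) and psma3 (-0.56), which held 65.0% of the subunit counts in sec31anju221, were both lower by less than 2-fold. Of the 53 genes 8 rose and 8 fell, where 15.8% and 21% of all genes tested did, and of the 37 more abundant genes 2 rose and 4 fell, where 15.3% and 12.9% of the 5199 genes did. Relative to the median of the 5199 genes the 37 had a median difference of -0.020. Of these, 2 were more than 2-fold higher and 4 more than 2-fold lower, where 13.6% and 14.3% of the 5199 genes were. Among genes with at least 10 CPM in one of both genotypes, the largest changes were in single genes. psmb10 had 12.6, 10.1 and 10.3 CPM in srebf1-/-;sec31anju221, against 0.703, 0.888 and 1.73 CPM in sec31anju221 (log2 fold change 3.31). psmd3, which encodes a lid subunit, had 81.0, 76.1 and 82.4 CPM in srebf1-/-;sec31anju221, against 20.4, 17.5 and 20.9 CPM in sec31anju221 (log2 fold change 2.03). psmd11 (ENSDARG00000060150) rose too (1.89), while its namesake did not pass 2-fold (-0.72). At the other end, by the same limit, stood psmd7 and psmd8 (both -1.32) and psmd4 (-1.22).

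srebf2-/-;sec31anju221 livers showed a mixed pattern, with more genes past 2-fold on both sides than in srebf1-/-;sec31anju221. Of the 53 genes 10 rose and 17 fell, where 15.2% and 34.1% of all genes tested did, with a median log2 fold change of -0.10 against -0.44 for all genes. The split was 12 and 11 with DESeq2 size factors and 8 and 22 with library totals. Of the 37 more abundant genes 4 rose and 6 fell with DESeq2 size factors, where 27.4% and 14.1% of the 5199 genes did. With library totals 2 of the 37 rose and 16 fell, where 13.7% and 27.1% of the 5199 genes did. On the TMM scale 2 of the 37 rose and 11 fell, where 22.9% and 17.3% of the 5199 genes did. Relative to the median of the 5199 genes the 37 had a median difference of -0.55. Of them 2 were more than 2-fold higher and 13 more than 2-fold lower, where 19.7% and 20% of the 5199 genes were. Against all genes tested the subunit median was thus higher, and against the abundant genes lower. None of the 7 constitutive beta genes rose and 2 fell, and 2 of the 14 non-ATPase regulatory genes rose and 6 fell.

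psmd3 stood apart from every other member of the regulatory particle. It had 343, 364 and 360 CPM in srebf2-/-;sec31anju221, against 20.4, 17.5 and 20.9 CPM in sec31anju221 and 39.5, 38.2 and 35.8 CPM in WT. Its log2 fold change over sec31anju221 was 4.18, and the next highest of a non-ATPase regulatory gene was 1.70. Some other lid genes fell: psmd7 had 13.5, 14.7 and 14.4 CPM in srebf2-/-;sec31anju221, against 82.0, 83.5 and 80.2 CPM in sec31anju221 (-2.53), and psmd8 had 34.4, 37.7 and 36.1 CPM, against 187, 180 and 197 CPM in sec31anju221 (-2.38). psmd12 (-1.61) and psmd11 (ENSDARG00000005134; -1.12) fell too. Not all non-ATPase genes went that way: psmd11 (ENSDARG00000060150) rose (1.70), and psmd14 (0.60) and psmd13 (0.58) were higher by less than 2-fold. psme3 fell to 46.2 CPM in srebf2-/-;sec31anju221, against 150 CPM in sec31anju221 (-1.69), while psme1 (100 against 83.8 CPM) and psme2 (167 against 99.4 CPM) did not pass 2-fold. psme1 therefore had 216 counts per 100 of psme3 in srebf2-/-;sec31anju221 and 176 in srebf1-/-;sec31anju221, against 56.0 in sec31anju221. psma8 rose in both lines, to 42 CPM in srebf2-/-;sec31anju221 and 29.2 CPM in srebf1-/-;sec31anju221, against 11.7 CPM in sec31anju221 (log2 fold changes 1.84 and 1.32).

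The inducible and thymic beta genes all averaged below 10 CPM, and their pattern differed from that of the constitutive genes. Genes of low level also moved apart from abundant genes in general. The median log2 fold change of all genes tested was 0.20, 0.25 and 0.22 in the xbp1 line, the atf6 line and the libraries labelled atf4a/atf4b. That of the 5199 abundant genes was -1.21, -1.52 and -1.25. In sec31anju221 livers 0 of the 7 rose over WT and 1 (psmb8) fell, where 21.1% and 14.1% of all genes tested did. With 7 genes at few counts, this is not far from those shares. psmb8 had 0 counts in each of the 3 sec31anju221 libraries and 4, 4 and 1 counts in the WT libraries, so it was at least 4.22-fold lower, with a floor of 3 counts over the genotype. psmb9 had 6, 5 and 3 counts in sec31anju221, against 10, 3 and 2 in WT, and psmb10 had 11, 14 and 27 counts in sec31anju221, against 24, 13 and 15 in WT. In both cases the libraries overlapped. Together the 7 genes held 0.116% ± 0.023 of the subunit counts other than psma2 and psma3 in sec31anju221 and 0.222% ± 0.058 in WT (SD, n = 3 libraries each).

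Every double mutant line had a larger share than sec31anju221: 0.698% in xbp1-/-;sec31anju221, 1.45% in atf6-/-;sec31anju221, 0.970% in the libraries labelled atf4a-/-;atf4b-/-;sec31anju221, 0.600% in srebf1-/-;sec31anju221 and 1.11% in srebf2-/-;sec31anju221. The share also depends on the other subunit genes, which were lower in 3 of these lines. The 7 genes themselves summed to 6.87 CPM in the xbp1 line, 5.79 CPM in the atf6 line, 4.76 CPM in the libraries labelled atf4a/atf4b, 18 CPM in the srebf1 line and 29.1 CPM in the srebf2 line, against 3.66 CPM in sec31anju221 and 4.73 CPM in WT. For the atf6 line (4.36 to 6.91 CPM) and the libraries labelled atf4a/atf4b (3.73 to 5.75 CPM) the libraries overlapped those of sec31anju221 (2.86 to 4.36 CPM). The counts of single genes differed by line. psmb8 had 22, 40 and 31 counts in xbp1-/-;sec31anju221, 10, 21 and 28 in atf6-/-;sec31anju221 and 34, 25 and 19 in srebf2-/-;sec31anju221, against 0, 0 and 0 in sec31anju221. These lines were at least 21.6, 15.4 and 38.1-fold higher than the floor of sec31anju221. The bounds were 4.29-fold for the libraries labelled atf4a-/-;atf4b-/-;sec31anju221 and 6.42-fold for srebf1-/-;sec31anju221, which had 15 and 18 counts in all. psmb12 had 142, 135 and 119 counts in srebf2-/-;sec31anju221 and 49, 74 and 63 in srebf1-/-;sec31anju221, against 6, 5 and 6 in sec31anju221 (log2 fold changes 5.06 and 3.52). psmb10 had 8.66 CPM in srebf2-/-;sec31anju221, against 1.11 CPM in sec31anju221 (2.96), and psmb9 2.59 against 0.298 CPM (3.09). psmb13a rose only in srebf2-/-;sec31anju221 by this measure, with 3.02 against 0.703 CPM (2.09).

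Set against the constitutive subunit it replaces in mammals, psmb10 had 28.2 counts per 100 of psmb7 in the libraries labelled atf4a-/-;atf4b-/-;sec31anju221, 14.8 in srebf2-/-;sec31anju221, 14.3 in srebf1-/-;sec31anju221, 10.1 in atf6-/-;sec31anju221 and 6.89 in xbp1-/-;sec31anju221, against 1.99 in sec31anju221 (1.31 to 3.06) and 5.71 in WT (4.75 to 6.98). These ratios rest on 84 counts of psmb10 and 298 of psmb7 in the libraries labelled atf4a/atf4b, 278 and 1884 in the srebf2 line and 484 and 3394 in the srebf1 line, against 52 and 2610 in sec31anju221. In the libraries labelled atf4a/atf4b psmb10 itself overlapped sec31anju221 (log2 fold change 0.47), while psmb7 fell (-3.35). For the other pairs, also with few counts, the order of the lines differed. psmb8 had 8.03 counts per 100 of psmb5 in the atf6 line, 3.74 in the srebf2 line and 3.03 in the xbp1 line. It had 1.43 in the libraries labelled atf4a/atf4b and 0.43 in the srebf1 line, against 0 in sec31anju221 and 0.50 in WT. psmb9 had 17.8 counts per 100 of psmb6 in the atf6 line, 10.7 in the xbp1 line and 9.09 in the libraries labelled atf4a/atf4b. It had 6.93 in the srebf2 line and 2.58 in the srebf1 line, against 0.74 in sec31anju221 and 1.24 in WT. psmb11 and psmb11b are counterparts of a beta gene of the mammalian thymus. psmb11b went the other way in both srebf lines. It had 0, 0 and 2 counts in srebf2-/-;sec31anju221 and 4, 1 and 2 in srebf1-/-;sec31anju221, against 19, 12 and 19 in sec31anju221. psmb11 had 0 counts in srebf2-/-;sec31anju221 and 6 in sec31anju221, which is at least 1.37-fold lower and does not reach 2-fold as a bound, although its fitted value is counted among the genes that fell. In srebf1-/-;sec31anju221 psmb11 had 2 counts, below the floor, and its libraries overlapped those of sec31anju221. Summed leukocyte markers were higher in both srebf lines: 19 genes summed to 1519 CPM in srebf2-/-;sec31anju221 and 470 CPM in srebf1-/-;sec31anju221, against 158 CPM in sec31anju221, and without the genes named mfap4 to 25.7 and 40.0 CPM, against 15 CPM. Few genes held much of these sums. A single gene named mfap4 (ENSDARG00000090557) had 1449 and 378 CPM. cd74a had 10.5 CPM in the srebf2 line and marco 24.5 CPM in the srebf1 line. Of the 19 genes 8 rose and 4 fell in the srebf2 line, and 9 and 1 in the srebf1 line. Of all genes tested 15.2% and 34.1%, and 15.8% and 21%, did. In the srebf2 line coro1a (-2.26), lck (-0.81) and zap70 (-0.52) were lower. The part of leukocytes in the levels of psmb8 to psmb13a was not tested.

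The make-up of the family's counts, which no scaling factor touches, also differed between genotypes. psma2 and psma3 held 73.4% of the subunit counts in atf6-/-;sec31anju221, 72.7% in the libraries labelled atf4a-/-;atf4b-/-;sec31anju221, 70.3% in xbp1-/-;sec31anju221, 52.9% in srebf1-/-;sec31anju221 and 50.3% in srebf2-/-;sec31anju221, against 65.0% in sec31anju221 and 64.6% in WT. The SD over libraries was at most 0.70 percentage points. Of the remaining counts, the ATPases held 11.2% to 16.2% in the double mutants, 13.2% ± 0.28 in sec31anju221 and 24.5% ± 0.17 in WT. Much of the ATPase share in WT was psmc6, with 10440 of 71366 remaining counts in WT and 8977 of 147582 in sec31anju221. The 7 ATPases had a median log2 fold change of 0.24 in sec31anju221 over WT, and 1 rose and 0 fell. The activators held 11.9% ± 0.30 in sec31anju221 and 7.86% ± 0.23 in WT. Constitutive beta genes held 18.6% to 28.0% in the double mutants, 25.7% ± 0.14 in sec31anju221 and 23.0% ± 0.69 in WT. Counts are not corrected for transcript length, so these shares compare genotypes and not genes.

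**Figure D3:**
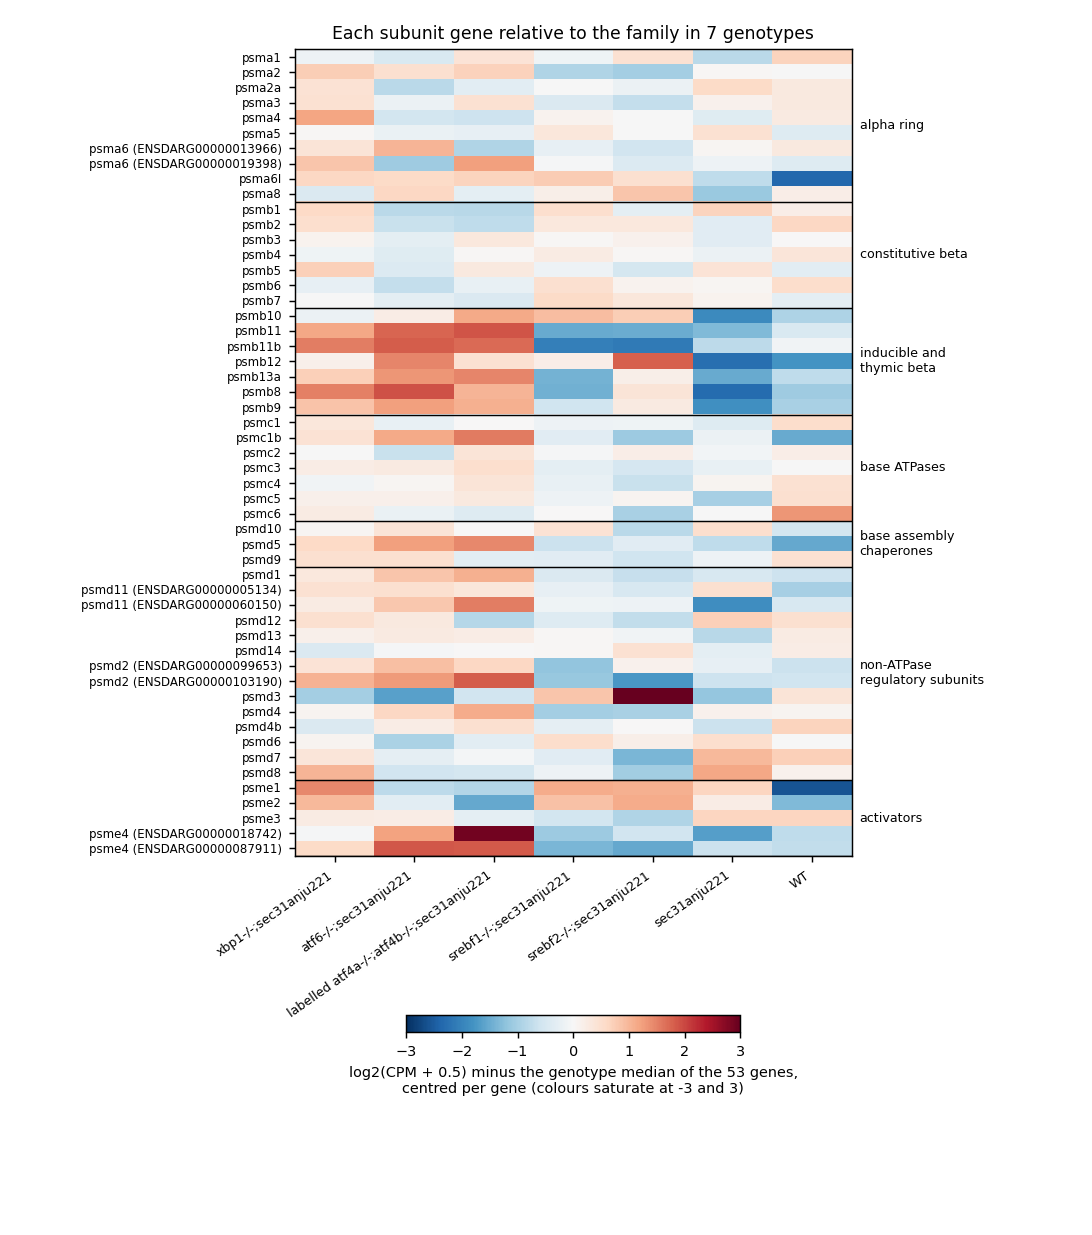
Level of each of the 53 subunit genes relative to the family in the 7 genotypes: log2(CPM + 0.5) minus the genotype's median over the 53 genes, centred on each gene's mean, with red above and blue below and colours saturating at -3 and 3. psme1 is lowest in WT, psmd3 highest in srebf2-/-;sec31anju221, psme4 (ENSDARG00000018742) highest in the libraries labelled atf4a-/-;atf4b-/-;sec31anju221, and the inducible and thymic beta genes are low in sec31anju221.

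Genes that work with the proteasome were counted in 4 lists, on the TMM scale. Their counts stand beside the shares given above: in sec31anju221 over WT 21.1% of all genes tested rose and 14.1% fell, and of the 5199 abundant genes 15.9% rose and 18.3% fell. Over sec31anju221, 60.5%, 67.7% and 58.1% of the abundant genes and 18.9%, 22.0% and 21% of all genes tested fell in the xbp1 line, the atf6 line and the libraries labelled atf4a/atf4b. In the srebf1 line 15.8% of all genes tested rose and 21% fell, and in the srebf2 line 15.2% rose and 34.1% fell. Of 15 matched assembly and processing partners 3 rose and 2 fell in sec31anju221 over WT, among them pomp, the chaperone that matures the core (159 against 71.9 CPM), and psmg1, a chaperone of the alpha ring that went the other way (3.26 against 18 CPM). None of the 15 rose in xbp1-/-;sec31anju221, atf6-/-;sec31anju221 or the libraries labelled atf4a-/-;atf4b-/-;sec31anju221 over sec31anju221, while 10, 11 and 11 fell, a share not far above that of the abundant genes. In srebf1-/-;sec31anju221 2 rose and 3 fell, and in srebf2-/-;sec31anju221 3 rose and 2 fell. psmg2, the partner of psmg1, fell furthest in the libraries labelled atf4a-/-;atf4b-/-;sec31anju221, with 1.48 CPM against 89.5 CPM in sec31anju221. Of 9 regulators of proteasome transcription, 1 rose and 2 fell in sec31anju221 over WT, and 2, 4 and 2 fell and 0 rose in xbp1-/-;sec31anju221, atf6-/-;sec31anju221 and the libraries labelled atf4a-/-;atf4b-/-;sec31anju221 over sec31anju221. In srebf1-/-;sec31anju221 2 rose and 0 fell, and in srebf2-/-;sec31anju221 3 rose and 1 fell. nfe2l1b, the counterpart of the factor that raises proteasome genes in mammals when the proteasome is inhibited, rose in sec31anju221 (13.7 against 6.23 CPM in WT; log2 fold change 1.14). ddi2, the protease that activates that factor in mammals, had 48.9 CPM in sec31anju221 and 24.7 CPM in WT (0.98, just under 2-fold). On the TMM scale their log2 fold changes in atf6-/-;sec31anju221 over sec31anju221 were -1.47 and -2.39. Set against the median of the 5199 abundant genes they were 0.051 and -0.88, so the direction for nfe2l1b depended on this reference. In the xbp1 line and the libraries labelled atf4a/atf4b nfe2l1b had -0.49 and -0.92 on the TMM scale. Against the abundant genes these were 0.72 and 0.33.

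Of 18 ubiquitin and delivery genes 3 rose and 1 fell in sec31anju221 over WT. sqstm1, a receptor that carries ubiquitin-tagged cargo to autophagy, had 209 CPM in sec31anju221 and 57.9 CPM in WT (log2 fold change 1.85). In xbp1-/-;sec31anju221, atf6-/-;sec31anju221 and the libraries labelled atf4a-/-;atf4b-/-;sec31anju221, 8, 12 and 10 of the 18 fell and 0 rose, which is near or below the share of the abundant genes, while 3 rose and 1 fell in srebf1-/-;sec31anju221 and 5 rose and 1 fell in srebf2-/-;sec31anju221. Of 25 antigen presentation and interferon genes 8 rose and 1 fell in sec31anju221 over WT. Over sec31anju221, 1 rose and 8 fell in the xbp1 line, 3 and 10 in the atf6 line, 4 and 10 in the libraries labelled atf4a/atf4b, 10 and 2 in the srebf1 line, and 9 and 5 in the srebf2 line. isg15, an interferon-induced gene, had 19.4 CPM in the xbp1 line, 0.685 CPM in the atf6 line, 0.201 CPM in the libraries labelled atf4a/atf4b, 67.3 CPM in the srebf1 line and 65.8 CPM in the srebf2 line, against 76.2 CPM in sec31anju221 and 2.1 CPM in WT. Like psme1, isg15 was higher in sec31anju221 than in WT, and lower than in sec31anju221 in the atf6 line and the libraries labelled atf4a/atf4b. In the xbp1 line isg15 fell (log2 fold change -1.97), while the direction of psme1 was not settled. isg15 is 1 of the 25 genes, and b2m was the gene of the list that fell in sec31anju221 over WT (-1.53). The interferon-induced genes rsad2 and mxa were low throughout: rsad2 had 0.702 CPM in sec31anju221 and 0.0898 CPM in WT, and mxa 1.94 CPM in sec31anju221 and 2.48 CPM in WT. The part of interferon in the levels of psme1 and psme2 was not tested. Of the genes that match the symbol rule without being subunits, psmc3ip had 15.6 CPM in sec31anju221 and 4.94 CPM in WT (log2 fold change 1.66), and psme3ip1 had 12.2 CPM in sec31anju221 and 8.08 CPM in WT (0.60).

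**Figure D4:**
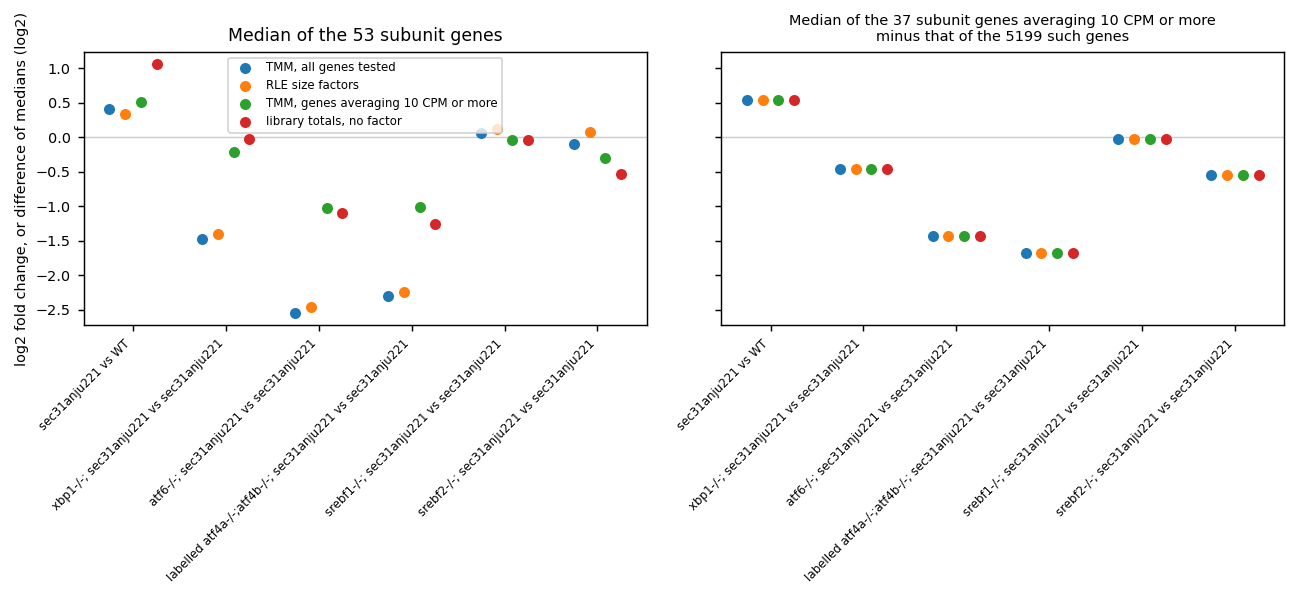
Median log2 fold change of the 53 subunit genes (left) and median of the 37 subunit genes averaging 10 CPM or more minus that of the 5199 genes with this mean (right) in the 6 comparisons under 4 scalings, on one vertical axis in log2 units. The left values spread with the scaling, from -1.47 to -0.020 in xbp1-/-;sec31anju221 vs sec31anju221, while the right values stay at 0.54, -0.46, -1.43, -1.67, -0.020 and -0.55 from left to right.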

How the data were processed

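RNA-seq was made from dissected livers of 7 dpf larvae with a low-input kit. The authors mapped reads to GRCz11 with HISAT2 2.1.0 and counted them per Ensembl gene with featureCounts 1.6.0, per the study's methods and the submitters' processing notes. The deposited values are raw counts per gene, whole numbers without normalization. The handling of strand and of multiply mapped reads is not given in the sources used here. Symbols came from a name table (29201 of 32520 identifiers) and were lower-cased. Among the members, 4 symbols name 2 identifiers each.

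The 30685 genes whose normalized counts summed to 10 or more were fitted in edgeR 4.0.16 (quasi-likelihood, TMM) over all 21 libraries under R 4.3.3, with DESeq2 1.42.0 as an alternative. The fit was tested on simulated data. Groups follow the labels. The 3 libraries of a genotype were counted as 1 sample, so fold changes past 2 are descriptions. Named genes were the catalytic, inducible and thymic beta genes, the activators, paralog pairs, and in each comparison the 3 highest and 3 lowest log2 fold changes among subunits with at least 10 CPM in one of both genotypes; others were named after their values were seen. Genes and lists were chosen with earlier results of these data known. No library column of other series was present (0). Gene lengths and sequences were not used here.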

Additional observations from a re-analysis of the deposited data

How the results depend on the processing

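The 6 medians and counts were recomputed under other scalings, filters, tools and thresholds and without each library. The scaling decided the size of the changes; the difference from the median of the 5199 genes averaging 10 CPM or more did not move. Median log2 fold changes of the 53 subunit genes were, in sec31anju221 vs WT, 0.34 with DESeq2 size factors, 0.51 with TMM factors set by genes averaging 10 CPM or more, 1.06 with library totals, 0.35 with DESeq2 and 0.36 in a fit to the 6 libraries compared, and 0.53 over the 37 subunits left by a filter on that average. In xbp1-/-;sec31anju221 vs sec31anju221 they were -0.22 with TMM factors set by genes averaging 10 CPM or more, -0.020 with library totals and -0.42 with the filter; in atf6-/-;sec31anju221 -1.03, -1.10 and -1.44; in the libraries labelled atf4a-/-;atf4b-/-;sec31anju221 -1.01, -1.25 and -1.64. In srebf1-/-;sec31anju221 they were -0.037, -0.041 and -0.053, and 0.11 with DESeq2 size factors, 0.11 with DESeq2 and 0.18 in the 6-library fit; in srebf2-/-;sec31anju221 -0.31, -0.54 and -0.62, and 0.074, 0.074 and 0.19. Genes past 2-fold numbered 30 with library totals and 33 past 1.5-fold in sec31anju221 vs WT; 13 with either TMM factors set by genes averaging 10 CPM or more or library totals in xbp1-/-;sec31anju221; and 25 past 1.5-fold in srebf1-/-;sec31anju221. With the filter they numbered 6, 27, 27, 7 and 16 of 37 in xbp1-/-;sec31anju221, atf6-/-;sec31anju221, the libraries labelled atf4a-/-;atf4b-/-;sec31anju221, srebf1-/-;sec31anju221 and srebf2-/-;sec31anju221. Fewer genes enter, and the filter also resets the TMM factors, with upward shifts of 1.25, 1.51 and 1.28 (log2) in the first 3. On the main scale 32, 35 and 36 of the same 37 genes fell in these 3. Leaving out each library gave medians of -1.5 to -1.33 in xbp1-/-;sec31anju221, -2.35 to -2.12 in the libraries labelled atf4a-/-;atf4b-/-;sec31anju221, 0.019 to 0.082 in srebf1-/-;sec31anju221 and 0.37 to 0.46 in sec31anju221 vs WT.

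Among single genes past 2-fold, those that changed sign did so with TMM factors set by genes averaging 10 CPM or more, with library totals or with the filter. Genes under 2-fold, near 0, also changed sign under other settings. In xbp1-/-;sec31anju221, with TMM factors set by genes averaging 10 CPM or more and with library totals, these were psmc1 (0.029 and 0.23), psme2 (0.088 and 0.29), psma2 (0.046 and 0.25), psmb2 (0.16 and 0.36), psme1 (0.11 and 0.31) and psmd1 (0.10 and 0.30), the filter giving the first value of each; with library totals alone psmd9 (0.17), psma8 (0.14) and psma1 (0.069). In atf6-/-;sec31anju221 they were psma6l (0.081 and 0.015), psmd1 (0.13 and 0.060, the filter giving 0.13), psmd2 ENSDARG00000103190 (0.49 and 0.42) and psmc1b (0.0081 with TMM factors set by genes averaging 10 CPM or more); in the libraries labelled atf4a-/-;atf4b-/-;sec31anju221 psmc1b (0.22) and psmd1 (0.064, also with the filter).

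Replicate numbers do not pair libraries across genotypes (correlations of same-numbered deviations -0.08 to 0.05). With the replicate number as a block the medians were 0.41, -1.47, -2.54, -2.30, 0.06 and -0.11 and no count moved past 1.5 times. Depth limits the 7 inducible and thymic beta genes, with 0 to 185 counts in a library, and both genes named psmd2, with 457 and 787 counts over all 21 libraries.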
